A study of Mus musculus with 75 samples.

Results

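The expression of 10 genes that mark macrophages and microglia was followed with age in 11 mouse tissues and, after parabiosis, in the choroid plexus. The genes were chosen by name: Cx3cr1, Trem2, Tyrobp, Fcer1g, Csf1r, Cd68, Lyz2, Aif1, Mrc1 and Cd163. For each, the row of that symbol with the highest mean was taken, and all 10 were found among the 20623 genes of the tissue data and the 16916 genes of the parabiosis data. All animals were C57BL/6 mice perfused with PBS before dissection, and the sample titles of the tissue experiment mark its mice as wild type (WT). Aged mice of 22 months were set against young mice of 3 months, neither with any treatment, 3 mice of each age giving bone marrow, cervical, inguinal and mesenteric lymph nodes, choroid plexus, colon, hippocampus, liver, lung, spleen and thymus. Parabiosis joins the circulations of a pair of animals: heterochronic partners differ in age and isochronic partners share it. The parabionts carried the same ages as the unpaired mice, and choroid plexus came from 2 old heterochronic, 3 old isochronic, 3 young heterochronic and 3 young isochronic animals. In the tissue experiment each group held 3 libraries, apart from 2 each of young bone marrow, young cervical lymph nodes and aged liver, which gives 63 libraries; the parabiosis experiment gave 11. Within a tissue, and among the parabionts, each library came from a separately named animal, so p-values within a tissue measure the spread between mice. The labels do not say which parabionts were joined to each other, so p-values among them treat possible partners as independent. The 63 tissue libraries came from 6 mice in all.

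Macrophages are phagocytes that live in nearly every organ, and microglia are those of the brain parenchyma; both need the CSF1 receptor, encoded by Csf1r, to survive. Many of their surface receptors do not signal alone but through short adaptor chains, Tyrobp (DAP12) and Fcer1g (the Fc receptor gamma chain), whose tyrosine motifs recruit the kinase Syk. Trem2, a receptor for lipids, pairs with Tyrobp, whereas the activating IgG receptors pair with Fcer1g. Cx3cr1 binds the chemokine fractalkine and is high in microglia and in patrolling monocytes. Cd68 is a glycoprotein of the lysosomal membrane, Lyz2 is lysozyme M, and Aif1 (Iba1) binds actin in ruffling membranes. Mrc1 (the mannose receptor) and Cd163 (the receptor that clears haemoglobin bound to haptoglobin) are scavenger receptors of resident and perivascular macrophages.

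Transcription of such genes depends on PU.1, an ETS-family factor whose core word is GGAA. Promoters of 8 of the 10 genes, all but Tyrobp and Csf1r, were read from RefSeq sequence of GRCm38.p6, 250 bases before to 50 after the annotated start; the expression files themselves used mm9. The 3 printed here belong to the genes whose mean over all tissues rose with age (Fcer1g, Cd68 and Trem2), given 5′ to 3′ on the gene's strand with GGAA, or its complement TTCC, in capitals.
Fcer1g, chr1:171234300-171234599, minus strand: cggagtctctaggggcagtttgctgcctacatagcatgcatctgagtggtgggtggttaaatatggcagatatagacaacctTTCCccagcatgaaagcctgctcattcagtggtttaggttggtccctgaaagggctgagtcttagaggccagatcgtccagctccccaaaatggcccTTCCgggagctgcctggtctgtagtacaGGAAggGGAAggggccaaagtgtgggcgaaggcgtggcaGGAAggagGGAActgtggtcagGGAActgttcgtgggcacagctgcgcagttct
Cd68, chr11:69666121-69666420, minus strand: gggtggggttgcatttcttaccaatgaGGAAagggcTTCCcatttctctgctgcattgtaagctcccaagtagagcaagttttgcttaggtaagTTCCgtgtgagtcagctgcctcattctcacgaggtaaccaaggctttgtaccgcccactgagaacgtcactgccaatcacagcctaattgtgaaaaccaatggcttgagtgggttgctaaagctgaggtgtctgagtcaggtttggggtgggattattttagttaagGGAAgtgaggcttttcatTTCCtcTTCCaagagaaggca
Trem2, chr17:48346151-48346450, plus strand: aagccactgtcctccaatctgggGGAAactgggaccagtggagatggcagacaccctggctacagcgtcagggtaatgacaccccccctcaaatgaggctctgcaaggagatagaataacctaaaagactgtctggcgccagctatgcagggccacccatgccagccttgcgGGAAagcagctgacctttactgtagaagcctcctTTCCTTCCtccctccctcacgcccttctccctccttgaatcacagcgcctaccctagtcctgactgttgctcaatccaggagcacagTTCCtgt
The word GGAA occurred on either strand 7 times at Fcer1g, 6 times at Cd68 and 5 times at Trem2, and at least once in 8 of the 8 promoters. It is also in 96.0% of all 32851 promoters of the same length, so its presence does not set these genes apart. The longer PU.1 word GAGGAAG, which contains the core, occurred in 2 of the 8, Mrc1 and Trem2, and in 13.6% of all promoters. These are matches of letters only.

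Values were normalised reads per transcript as deposited. No correction for transcript length was made here, so levels were compared between samples and tissues for one gene at a time. Libraries held an estimated 187524 to 1134078 reads in tissues and 533564 to 990063 in parabionts, and 1 read was worth 0.527 to 2.19 and 0.783 to 1.48 units; a gene at a few units thus rests on a few reads. Defining markers of each organ were present in both ages, among them epithelial genes in choroid plexus, lung and colon, neuronal genes in hippocampus and hepatocyte genes in liver. Young mouse 2 stood apart in 6 tissues, where markers of other organs were at least 10 times above every other library. Its hippocampus held summed B cell markers of 801 (at most 4.87 in the other hippocampal libraries) and T cell markers of 564 (at most 11.3). The 5 other tissues were cervical lymph nodes (neuron), liver (thymocyte and T cell), lung (hepatocyte), mesenteric lymph nodes (colon epithelium) and spleen (lung epithelium). Lung epithelial genes were also high in the liver of young mouse 1, and fat cell genes in the inguinal lymph nodes of aged mouse 3. For these 7 tissues the values of the 10 genes without each such library are given below where they moved by over 1.5 times or changed sign. In whole tissue, fewer macrophages and less RNA per macrophage cannot be told apart.

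Each gene had its own order of tissues. Cx3cr1 was highest in hippocampus, with a median of 67.3 in aged mice (60.6 to 67.4) and 59.8 in young mice (32.0 to 60.4), and lowest in liver, with 3.89 in aged and 2.97 in young mice. Trem2 also peaked in hippocampus, at 27.5 in aged mice (26.2 to 37.0) and 13.3 in young mice (0 to 26.3). Its aged hippocampal libraries overlapped with aged liver, where the 2 mice had 32.4 and 1.89. Both adaptors were highest in bone marrow, whose libraries did not overlap with the next tissue: Tyrobp had medians of 822 in aged and 798 in young mice, against 218 and 274 in spleen, which came next. Fcer1g followed with 358 in aged and 266 in young bone marrow, and 168 and 97.4 in spleen. Lyz2 was high in bone marrow (5037 in aged, 4661 in young mice) and lung (4875 and 4722), which overlapped; alveolar type II cells of the lung make lysozyme M too. Csf1r and Cd68 were highest in spleen, with medians of 215 and 104 in aged mice and 231 and 57.9 in young mice. Aif1 was highest in mesenteric and cervical lymph nodes, at 100 and 89.8 in aged and 68.4 and 69.1 in young mice, and Mrc1 in aged spleen (46.6) and young inguinal lymph nodes (35.8). The leading tissue of Cd163 differed between the ages: thymus led in aged mice with 37.2 and bone marrow in young mice with 49.1. For Cx3cr1, Csf1r, Cd68, Aif1, Mrc1 and Cd163 the first and second tissue overlapped in both ages. Choroid plexus held the lowest median in both ages of Tyrobp, Csf1r and Cd68, and hippocampus of Lyz2 and Cd163.

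With each mouse reduced to 1 value per gene, its mean over the tissues sequenced from that mouse after centring each tissue (9 for young mouse 1, 10 for aged mouse 2 and 11 for the others), 3 of the 10 genes rose with age. This comparison was chosen after the values of single tissues had been seen. Fcer1g, the gamma chain, had mean deviations of 0.55, 0.41 and 0.27 log2 units in aged mice 1, 2 and 3, against −0.45, −0.28 and −0.55 in young mice 1, 2 and 3. The difference was 0.83 on the log2 scale (SE 0.116, limma adjusted p 0.0048). Cd68 stood at 0.51, 0.29 and 0.24 in aged and −0.56, −0.37 and −0.18 in young mice, a difference of 0.72 (SE 0.133, limma adjusted p 0.0324). Trem2 stood at 0.88, 0.23 and 0.68 in aged and −0.17, −0.89 and −0.67 in young mice, a difference of 1.17 (SE 0.230, limma adjusted p 0.0414). In all 3 genes every aged mouse lay above every young mouse, as it did for Tyrobp, at 0.52, 0.05 and −0.08 in aged and −0.22, −0.25 and −0.09 in young mice. Tyrobp itself did not pass (0.35, limma adjusted p 0.239). Of all 17264 genes tested, 0.324% passed (46 higher and 10 lower in aged mice), and 10.4% had aged mice above young mice without overlap, against 4 of the 10 here. The other 6 genes had differences above 0 that did not pass: Aif1 0.49 (adjusted p 0.362), Csf1r 0.29 (0.274), Cd163 0.25 (0.807), Lyz2 and Mrc1 0.21 each (0.451 and 0.520) and Cx3cr1 0.11 (0.830). The median of the 10 differences was 0.32, against 0.0059 for all genes. Aged mouse 1 had the highest value of all mice for each of the 10 genes but Cd163. In aged mice 1, 2 and 3 Aif1 stood at 0.80, 0.09 and −0.20, and Cx3cr1 at 0.51, 0.05 and −0.40. Leaving out each mouse or tissue in turn gave 0.19 to 0.74 for Aif1 and 0.15 to 0.49 for Tyrobp. It gave 0.15 to 0.41 for Csf1r and −0.13 to 0.36 for Cx3cr1. Without the 8 libraries named above, Fcer1g stood at 0.78 (limma adjusted p 0.0052), Cd68 at 0.70 (0.0133) and Trem2 at 0.94 (0.0275), where 1.84% of all genes passed. Without young mouse 2, Fcer1g stood at 0.90 (limma adjusted p 0.0019), Cd68 at 0.70 (0.0444) and Trem2 at 1.04 (0.0610). Over all settings, mice and tissues left out, the call of Fcer1g held in 23 of 25 cases, that of Cd68 in 13 and that of Trem2 in 12, so the calls of Cd68 and Trem2 depend on single mice and tissues. The call of Fcer1g was lost without aged mouse 2 (adjusted p 0.0533). That of Cd68 was lost without aged mouse 1 (0.0978), aged mouse 2 (0.129) or young mouse 1 (0.137), and that of Trem2 without aged mouse 1 (0.118), 2 (0.0795) or 3 (0.0954) as well as young mouse 2. Both were lost without cervical lymph nodes, liver, spleen or thymus (0.0524 to 0.0945), Cd68 also without mesenteric lymph nodes (0.0753) and Trem2 without colon (0.0545). Markers of other cells moved with these means: of the neutrophil markers 7 of 7 lay above 0 (median 1.06, 1 higher and passing), of the mast cell markers 6 of 7 (0.65, 1 higher), of the erythroid markers 6 of 6 (0.63, 0 passing) and of the T cell markers 0 of 6 (−0.49, 1 lower). Their part in the results was not tested.

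**Figure D1:**
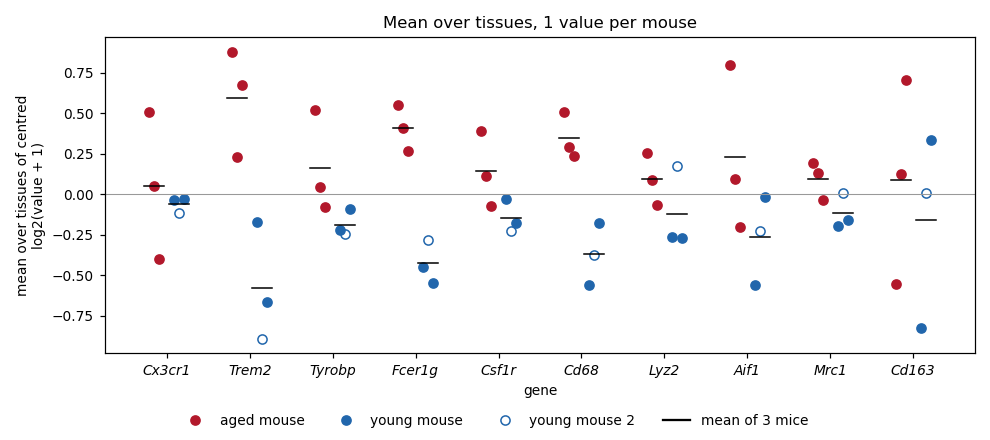
Mean deviation of each mouse over its 9 to 11 tissues (log2 units) for the 10 genes, aged mice left of young mice within each gene; each point is 1 mouse, open circles are young mouse 2 and black lines are group means. Aged and young mice do not overlap for Fcer1g, Cd68, Trem2 and Tyrobp.

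Within single tissues the same genes seldom passed a test over all genes. In thymus 1 of 10 genes, Cd163, passed, against 1.1% of all genes. In the 10 other tissues none passed; the share of all genes that did was 0.0536% in bone marrow, 0.0308% in cervical lymph nodes, 0.291% in choroid plexus, 0.123% in colon, 0.0168% in liver, 0.0234% in lung, 0.0337% in mesenteric lymph nodes and 0.15% in spleen. It was 0.0% in hippocampus and in inguinal lymph nodes, where limma gave 422 and 557 genes at an unadjusted p under 0.05. Among genes that passed the filter on low values (2 units), those with a log2 difference, aged minus young, above 0 were counted. They numbered 10 of 10 in lung and in mesenteric lymph nodes, 9 of 9 in choroid plexus and 9 of 10 in cervical lymph nodes, liver and thymus. Plain means can differ in sign from the log2 difference: Cd163 in choroid plexus averaged 2.36 units in aged and 2.72 in young mice. The count was 7 of 10 in bone marrow and spleen, 5 of 8 in hippocampus, 4 of 9 in colon and 3 of 10 in inguinal lymph nodes. Median log2 differences ran from 1.32 in liver, 1.03 in choroid plexus, 0.82 in lung and 0.81 in mesenteric lymph nodes to −0.06 in colon and −0.40 in inguinal lymph nodes, while the medians of all genes lay between −0.01 and 0.14. Several of these counts rest on single libraries. Without young mouse 2 the genes above 0 numbered 5 of 10 in cervical lymph nodes (median 0.02, with 1 young library left), 8 of 10 in mesenteric lymph nodes (0.29), 9 of 10 in lung (0.58) and liver (1.18), 7 of 10 in spleen (0.32) and 8 of 8 in hippocampus (0.64). Without young mouse 1 they numbered 9 of 10 in liver (1.35), and without aged mouse 3 they numbered 6 of 10 in inguinal lymph nodes (0.20). None of the 10 genes passed in these fits. In liver and choroid plexus, which had the highest medians, the values of several genes fell without aged mouse 1. Liver then gave 0.62 for Tyrobp, 0.50 for Aif1, 0.79 for Cd68, −0.24 for Trem2 and 1.20 for Fcer1g, with 1 aged library left. Choroid plexus then gave 0.63 for Cx3cr1 and 0.57 for Lyz2.

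Aged and young libraries separated without overlap for 5 genes in liver, all higher in aged mice (10.8% of all genes), and for 4 in cervical lymph nodes (12.8%). In lung, spleen and thymus 3 genes each separated upward (10.5%, 8.47% and 11.6%), in mesenteric lymph nodes and choroid plexus 2 each (9.0% and 5.55%) and in hippocampus 1 (6.6%). Bone marrow had 2 upward (12.1%) and 1 downward (9.83%), and inguinal lymph nodes had 1 each way (6.37% and 6.39%). In colon 1 separated downward (6.7%), and Trem2 upward at levels too low to test. A share of 1 gene in 10 is near these backgrounds. Without young mouse 2 the genes separated upward numbered 6 in hippocampus, 5 in liver, 4 each in cervical lymph nodes, lung and spleen and 2 in mesenteric lymph nodes, with 1 downward each in cervical lymph nodes and spleen. They numbered 6 in liver without young mouse 1, and 2 upward and 1 downward in inguinal lymph nodes without aged mouse 3.

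**Figure D2:**
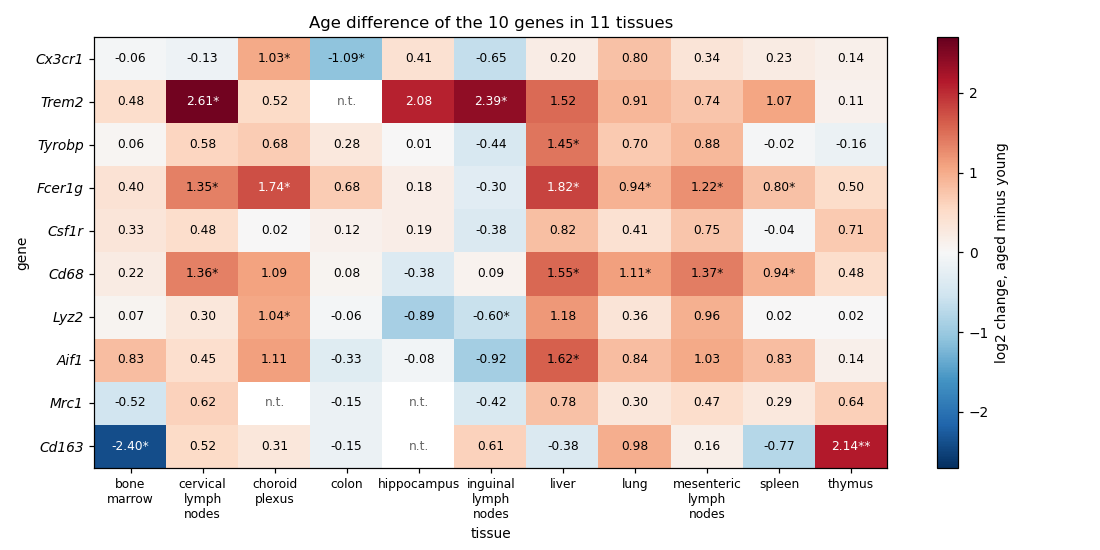
Log2 difference, aged minus young, of each gene (rows) in each tissue (columns); ** marks an adjusted p under 0.05, * an unadjusted p under 0.05 and n.t. a gene too low to test. The rows of Fcer1g, Cd68 and Trem2 are mostly positive, and Cd163 shows 2.14 in thymus beside −2.40 in bone marrow.

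Among the adaptors, Fcer1g was higher on average in aged mice in 10 of 11 tissues, and its libraries separated in 5. In cervical lymph nodes it had 123, 113 and 114 units in aged mice and 35.7 and 56.9 in young mice, a log2 difference of 1.35 (SE 0.294, limma adjusted p 0.112). In liver it had 121 and 50.2 in aged mice, against 29.7, 19.8 and 16.5 in young mice (1.82, SE 0.462, adjusted p 0.734). Both tissues thus separated the ages by a wide gap, yet no adjusted p passed. In spleen the 3 aged mice had 168, 186 and 159 and the 3 young mice 97.4, 88.0 and 109 (0.80, adjusted p 0.322). In mesenteric lymph nodes they had 134, 69.3 and 79.8 against 48.7, 24.3 and 46.8 (1.22, adjusted p 0.317). In lung they had 109, 78.0 and 62.1 against 60.8, 45.9 and 25.9 (0.94, adjusted p 0.377). Inguinal lymph nodes were the tissue where Fcer1g was lower on average, with 58.0, 97.8 and 28.5 in aged and 50.1, 74.9 and 82.3 in young mice; without aged mouse 3 the difference was 0.15. Without young mouse 2 the differences in cervical lymph nodes, liver, spleen, mesenteric lymph nodes and lung were 1.02, 1.77, 0.72, 0.91 and 1.01, and the lowest adjusted p was 0.139, in liver. Hippocampus gave 0.65 without that mouse, against 0.18 with it. In choroid plexus the ages overlapped, at 3.67 to 14.1 units in aged and 0.998 to 4.14 in young mice. Leaving out each choroid plexus in turn gave 1.40 to 2.25. Leaving out each liver in turn gave 1.20 to 2.44, the lowest without aged mouse 1. Erythroid markers in liver summed to 448 to 577 in aged and 73.9 to 170 in young mice; their part in the liver values was not tested.

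Tyrobp, the other adaptor, was higher on average in aged mice in 7 of 11 tissues, and its libraries separated in 1. Its spleens had 200, 282 and 218 units in aged mice and 274, 162 and 288 in young mice, which overlapped. Its bone marrow had 756, 915 and 822 in aged and 860 and 737 in young mice. Liver was the tissue where it separated, at 249 and 77.7 in aged and 49.0, 38.3 and 67.2 in young mice (1.45, SE 0.516, limma unadjusted p 0.0163, adjusted p 1). The value rests on aged mouse 1: it was 0.62 without that mouse and 2.29 without aged mouse 3, and 1.44 and 1.26 without young mouse 1 or 2. Tyrobp without young mouse 2 stood at −0.12 in cervical lymph nodes, against 0.58 with it, at 0.19 against 0.70 in lung, at 0.31 against 0.88 in mesenteric lymph nodes and at −0.28 against −0.02 in spleen. Without aged mouse 3 it stood at −0.12 in inguinal lymph nodes, against −0.44 with it. The difference between the 2 adaptors was not tested.

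Fc receptors and related receptors, the activating IgG receptors and several C-type lectins among them, were followed as a list of 9 genes. Not all of them signal through Fcer1g, and the inhibitory Fcgr2b and Clec7a do not need it. Over the mean of the tissues 2 of the 9 rose, 0 fell and 8 lay above 0, with a median difference of 0.55. Fcgr4, an activating IgG receptor, rose by 1.70 on the log2 scale (SE 0.201, limma adjusted p 0.0015), a call that held in 24 of 25 settings. Clec7a, the beta-glucan receptor Dectin-1, rose by 1.02 (SE 0.190, limma adjusted p 0.0324), in 9 of 25 settings. Fcer1a, the IgE receptor chain of mast cells, had 0.70 (adjusted p 0.0611). In spleen Fcgr4 also passed by itself, with 89.1 ± 6.38 units in aged and 29.7 ± 7.76 in young mice (SD, n = 3 each; limma adjusted p 0.0321), a call that held in 5 of 14 settings and was lost on leaving out any of the aged mice (0.238 to 0.283).
Fcer1g and Fcgr4 are also expressed by neutrophils, and Fcer1g by mast cells. The summed level of neutrophil markers in spleen was 941 to 1566 in aged and 271 to 290 in young mice, and in mesenteric lymph nodes 108 to 181 in aged and 21.5 to 29.5 in young mice. Mast cell markers in cervical lymph nodes summed to 206 to 271 in aged and 12 to 49.9 in young mice, and 6 of the 6 tested lay above 0. Their part in the results for Fcer1g was not tested.

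Trem2 was low outside the brain and bone marrow, often under 10 units. Aged means lay above young means in 11 of 11 tissues. In cervical lymph nodes Trem2 had 8.87, 3.21 and 4.50 units in aged mice and was at 0 in both young libraries. The aged mean was 1.87 times an assumed floor of 3 reads per young library (2.95 units), and the lowest aged mouse lay near that floor. The fit to the values themselves did not pass (limma unadjusted p 0.00494, adjusted p 0.431). In inguinal lymph nodes it had 7.44, 6.11 and 5.03 in aged and 1.52, 0 and 0 in young mice (2.39, SE 0.691, limma adjusted p 0.843), or 2.51 without aged mouse 3. Both node groups separated the ages, at levels of a few reads. In hippocampus aged mice had 26.2, 37.0 and 27.5 and young mice 26.3, 0 and 13.3. The 0 belonged to young mouse 2, and without it the difference was 0.64 (limma unadjusted p 0.0564, adjusted p 0.777), against 2.08 with it. In lung aged mice had 7.77, 6.24 and 13.3 and young mice 6.17, 2.30 and 4.85 (0.91, adjusted p 0.529); without young mouse 2 the difference was 0.58. In mesenteric lymph nodes it was 0.74 with and 0.27 without that mouse. In liver it was 1.52, but −0.24 without aged mouse 1. The 12 genes of TREM and DAP12 signalling showed no common direction over the mean of the tissues. Of these 12, 6 lay above 0 and 6 below, 0 passed with limma (2 at an unadjusted p under 0.05), and the median was 0.02. Trem3 stood at 0.60 (adjusted p 0.143), Treml2 at −0.64 (0.177) and Trem1 at 0.29 (0.446).

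**Figure D3:**
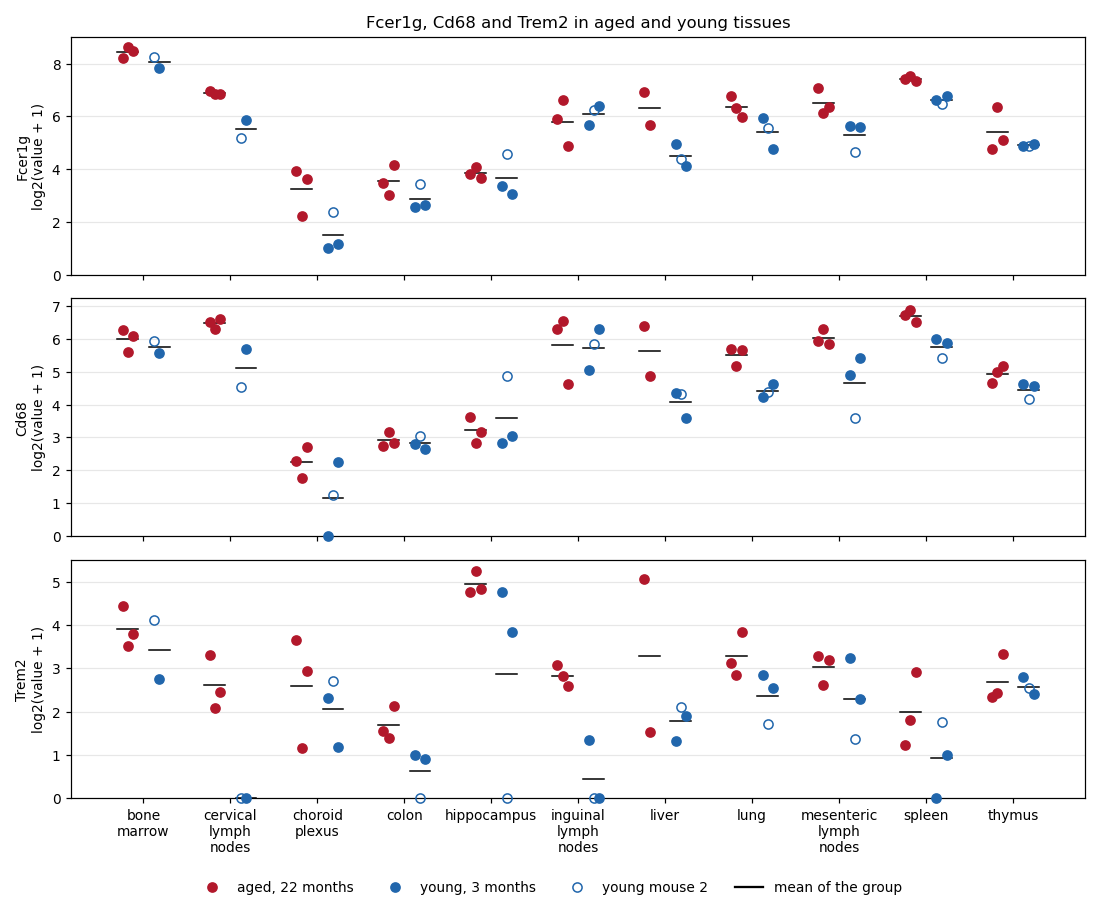
Normalised reads (log scale of value + 1) of Fcer1g, Cd68 and Trem2 in every library of the 11 tissues, aged left of young; open circles are young mouse 2 and black lines are group means on the log2 scale. For Cd68 the aged points lie above all young points in 6 tissues, for Fcer1g in 5 and for Trem2 in 4.

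Csf1r, the receptor on which these cells depend, showed smaller differences. It separated in bone marrow, at 101, 87.8 and 107 in aged and 83.2 and 72.6 in young mice (0.33, limma adjusted p 0.847). It also separated in cervical lymph nodes, at 210, 173 and 156 in aged and 111 and 147 in young mice (0.48, adjusted p 0.759), but without young mouse 2 the difference there was 0.28. In spleen, its highest tissue, aged mice had 215, 190 and 228 and young mice 231, 142 and 308, which overlapped. In thymus aged mice had 41.3, 65.7 and 37.0 and young mice 23.8, 55.4 and 16.6 (0.71, adjusted p 0.413); without young mouse 2, the highest of the young, the difference was 1.19 (adjusted p 0.0562). Leaving out young mouse 2, it stood at 0.15 in mesenteric lymph nodes, against 0.75 with it, at 0.51 against 0.82 in liver, at 0.48 against 0.19 in hippocampus and at −0.34 against −0.04 in spleen. Inguinal lymph nodes gave −0.09 without aged mouse 3, against −0.38 with it. In no tissue did its unadjusted p fall under 0.05 with all libraries. A list of 10 genes held the ligands of Csf1r, receptors of other myeloid growth factors and myeloid transcription factors. Of these 10, 8 lay above 0 over the mean of the tissues, 0 passed with limma (3 at an unadjusted p under 0.05) and the median was 0.20. Csf3r, the G-CSF receptor that neutrophils carry, had 0.74 (adjusted p 0.124), Cebpa, a myeloid transcription factor, 0.36 (0.202) and Csf2ra 0.25 (0.285). In thymus Cebpa passed, with 73.2 ± 21.5 units in aged and 27.4 ± 1.65 in young mice (SD, n = 3 each; limma adjusted p 0.0166), in 10 of 14 settings. Cebpa is also a factor of fat cells, whose markers summed to 857 to 2784 in aged and 277 to 1342 in young thymus, 3 of 6 passing; their part in the Cebpa result was not tested.

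Cx3cr1 had no common direction among the organs. In choroid plexus aged mice had 32.0, 14.7 and 12.3 units and young mice 9.48, 6.90 and 8.78, a log2 difference of 1.03 (SE 0.401, limma unadjusted p 0.0148, adjusted p 0.631). In colon the order was the reverse, with 9.54, 4.0 and 4.76 in aged and 18.4, 12.2 and 10.4 in young mice (−1.09, SE 0.401, limma unadjusted p 0.0124, adjusted p 0.318). Neither group of libraries overlapped, and neither difference passed. Leaving out aged mouse 1 brought the choroid plexus value to 0.63. The contrast of choroid plexus with colon in this age difference was 2.12 (SE 0.658, limma adjusted p 0.376). In hippocampus aged mice had 67.3, 60.6 and 67.4 and young mice 60.4, 32.0 and 59.8. The lowest aged and the highest young value all but touched, and the difference was 0.41 with and 0.11 without young mouse 2. In spleen aged mice had 42.3, 40.9 and 45.0 and young mice 39.2, 35.6 and 34.4 (0.23, adjusted p 0.804). In the other 7 tissues aged and young libraries overlapped; among these, cervical lymph nodes gave −0.47 without young mouse 2, against −0.13 with it, mesenteric lymph nodes 0.04 against 0.34 and liver 0.54 against 0.20, and inguinal lymph nodes gave 0.24 without aged mouse 3, against −0.65 with it.
Genes of the fractalkine axis, 6 in all, had 4 above 0 over the mean of the tissues and 0 passing with limma (0 at an unadjusted p under 0.05), with a median of 0.11. Cx3cl1, fractalkine itself, stood at −0.30 (adjusted p 0.421). Of 10 genes of homeostatic microglia, 10 lay above 0 in hippocampus, with a median of 0.61 against 0.14 for all genes, and 0 passed. Tmem119 averaged 25.5 ± 7.66 in aged and 14.9 ± 3.67 in young hippocampus, and P2ry12, a purine receptor of resting microglia, 14.5 ± 6.83 and 7.63 ± 3.72 (SD, n = 3 each; limma adjusted p 0.891 for both). Without young mouse 2, whose hippocampus carried the B and T cell markers, 8 of the 10 lay above 0, with a median of 0.43 against 0.0082 for all genes. That library was also the lowest of the hippocampal libraries for Tmem119 (10.7) and P2ry12 (3.55). Neuron markers summed to 2668 to 2792 in aged hippocampus and 625 to 2660 in young hippocampus; their part in these values was not tested.

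**Figure D4:**
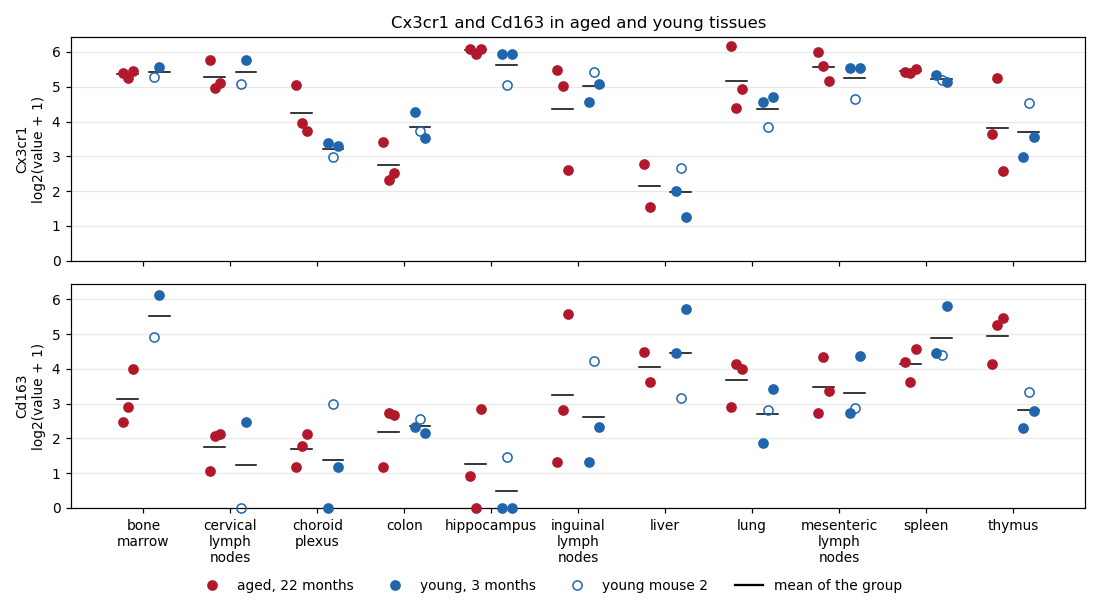
Normalised reads (log scale of value + 1) of Cx3cr1 and Cd163 in every library of the 11 tissues, aged left of young; open circles are young mouse 2 and black lines are group means on the log2 scale. Cx3cr1 is higher in aged choroid plexus and lower in aged colon, and Cd163 is higher in aged thymus and lower in aged bone marrow.

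Cd68, the lysosomal glycoprotein, separated the ages in 6 tissues, always higher in aged mice. In lung aged mice had 50.5, 35.4 and 49.7 and young mice 17.6, 19.9 and 23.4 (1.11, SE 0.272, limma adjusted p 0.311). In cervical lymph nodes they had 91.0, 77.0 and 95.6 against 22.4 and 50.1 (1.36, SE 0.339, adjusted p 0.206). The nodes of young mouse 2, with the value 22.4, carried neuronal markers, and without them the difference was 0.79. In spleen aged mice had 104, 117 and 89.9 and young mice 62.4, 41.6 and 57.9 (0.94, adjusted p 0.281). In mesenteric lymph nodes they had 59.7, 77.0 and 56.4 against 29.0, 11.1 and 41.9, a difference of 1.37 with and 0.85 without young mouse 2. Liver, with 83.4 and 28.4 against 19.3, 19.1 and 11.0, and thymus, with 24.1, 30.7 and 35.0 against 23.8, 17.1 and 22.5, also separated. The nearest thymus values, 24.1 in an aged and 23.8 in a young mouse, lay less than 1 read apart. The liver difference was 1.55, but 0.79 without aged mouse 1. Lung without young mouse 2 gave 1.10 and spleen 0.77. Inguinal lymph nodes gave 0.69 without aged mouse 3, against 0.09 with it. Hippocampus had the lowest difference, −0.38, which became 0.26 without young mouse 2.

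Lyz2 had age differences of opposite sign in choroid plexus and inguinal lymph nodes, and neither passed. The contrast of choroid plexus with inguinal lymph nodes in this age difference was 1.64 (limma adjusted p 0.806), which did not pass either. In choroid plexus aged mice had 161, 59.9 and 59.3 units and young mice 39.9, 40.0 and 39.5, a difference of 1.04 (SE 0.287, limma unadjusted p 0.0015, adjusted p 0.273). The young values agreed closely, and aged mouse 1 was far above the others; without it the difference was 0.57. In inguinal lymph nodes aged mice had 1081, 1228 and 862 and young mice 1537, 1461 and 1768, so all aged values lay below (−0.60, SE 0.234, adjusted p 0.843; −0.46 without aged mouse 3). Lung without young mouse 2 gave −0.01, against 0.36 with it, mesenteric lymph nodes 0.39 against 0.96, cervical lymph nodes 0.10 against 0.30 and spleen 0.37 against 0.02. Reads of Lyz2 may be shared with its near-identical neighbour Lyz1. In hippocampus young mouse 2 alone had 942, against 24.1, 27.2 and 54.9 in aged mice and 11.6 and 20.02 in the other young mice. With it the difference was −0.89; without it 1.06 (limma unadjusted p 0.00405, adjusted p 0.569). Tyrobp in the same library stood at 108, against 28.9, 34.6 and 23.9 in aged and 17.0 and 12.1 in the other young mice, and its difference was 0.01 with it (−0.17 and −0.12 under other scalings) and 0.95 without it (adjusted p 0.603).

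Aif1, the actin-binding Iba1, separated in liver, at 88.3 and 18 in aged and 8.92, 17.2 and 12.3 in young mice (1.62, SE 0.608, limma adjusted p 1). It also separated in bone marrow, at 61.7, 13.7 and 16.5 in aged and 13.1 and 13.4 in young mice (0.83, adjusted p 0.834). The nearest marrow values, 13.7 in an aged and 13.4 in a young mouse, lay less than 1 read apart. Aged mouse 1 supplied the high value in both liver and bone marrow, and without it the liver difference was 0.50. Without young mouse 1 or 2 the liver difference was 1.40 and 1.84. Aif1 without young mouse 2 stood at −0.07 in cervical lymph nodes, against 0.45 with it, at 0.45 against 1.03 in mesenteric lymph nodes, at 0.29 against 0.83 in spleen and at 0.71 against −0.08 in hippocampus. Inguinal lymph nodes gave 0.32 without aged mouse 3, against −0.92 with it. In choroid plexus it had 14.1, 2.44 and 5.59 in aged and 2.00, 1.38 and 3.76 in young mice, which overlapped. Of 10 genes of the phagocyte lysosome, 1 rose over the mean of the tissues and 7 lay above 0, with a median of 0.22. The protease Ctsb rose by 0.52 (SE 0.0795, limma adjusted p 0.0105), in 23 of 25 settings. Ctsl stood at −0.50 (adjusted p 0.0662) and Ctss at 0.34 (0.211). Complement genes made by macrophages, 5 in all, were above 0 in 5 cases, their median being 0.54, and 0 passed with limma (4 at an unadjusted p under 0.05); C1qb stood at 0.69 (adjusted p 0.0609), C1qc at 0.54 (0.142) and C1qa at 0.59 (0.194).

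Cd163 gave the one call within a tissue. In thymus aged mice had 16.6, 37.2 and 43.0 units and young mice 3.96, 9.06 and 5.89, a log2 difference of 2.14 (SE 0.40, limma adjusted p 0.0175). All aged thymuses lay above all young ones. The call held in 9 of 14 settings; it was lost without the filter (adjusted p 0.0507), without the variance trend (0.139) and on leaving out aged mouse 3 (0.0849), young mouse 1 (0.0740) or young mouse 3 (0.0682). In bone marrow the direction was the opposite, with 4.54, 6.50 and 14.9 in aged and 29.4 and 68.7 in young mice (−2.40, SE 0.449, limma adjusted p 0.0629). All aged marrows lay below both young ones. Leaving out each marrow in turn gave −3.00 to −1.80, and 1 of these 5 fits passed (adjusted p 0.0043 to 0.299): the one without young mouse 2, in which a single young library, the highest, is left and the spread comes from the aged libraries alone. The contrast of thymus with bone marrow in this age difference was 4.24 (SE 1.04, limma unadjusted p 0.00017, adjusted p 0.390). In spleen, where red pulp macrophages carry Cd163, aged mice had 17.2, 11.3 and 22.8 and young mice 21.2, 20.005 and 55.5, which overlapped. Spleen without young mouse 2 gave −1.02, against −0.77 with it, liver −1.03 against −0.38, cervical lymph nodes −0.71 against 0.52 and mesenteric lymph nodes −0.06 against 0.16; without aged mouse 3 inguinal lymph nodes gave −0.56, against 0.61 with it. Beside the thymus result, erythroid markers summed to 158 to 705 in aged and 39.1 to 93.3 in young thymus, with 4 of the 4 tested above 0 and a median of 2.62. Fat cell markers, given above, had 6 of 6 above 0 (median 2.07), mast cell markers 4 of 4 (1.60; sums of 17.5 to 56.6 in aged and 8.53 to 12.9 in young thymus) and neutrophil markers 6 of 6 (1.13). Fibroblast markers summed to 259 to 575 in aged and 125 to 216 in young thymus, 4 of 5 above 0 (1.12). Their part in the Cd163 result was not tested.
Mrc1 separated in thymus as well, at 15.5, 17.5 and 12 in aged and 8.91, 8.53 and 10.2 in young mice (0.64, limma adjusted p 0.417). In liver it separated at 40.2 and 33.2 in aged and 23.8, 18.5 and 20.6 in young mice (0.78, adjusted p 1), or 0.70 without young mouse 2. Without that mouse lung gave 0.57, against 0.30 with it, mesenteric lymph nodes −0.17 against 0.47 and cervical lymph nodes −0.08 against 0.62, and inguinal lymph nodes gave 0.25 without aged mouse 3, against −0.42 with it. It was too low to test in choroid plexus and hippocampus.

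Among other macrophage genes, 11 of border and perivascular macrophages had 11 above 0 over the mean of the tissues, a median of 0.34, and 0 passing with limma (5 at an unadjusted p under 0.05). Siglec1, the sialic acid receptor CD169, stood at 1.00 (adjusted p 0.0724), Folr2 at 0.64 (0.190) and the transcription factor Maf at 0.34 (0.171). In thymus 10 of 11 lay above 0 with a median of 0.95 and 0 passing; Clec10a averaged 17.3 ± 2.13 in aged and 5.73 ± 2.14 in young thymus, and Folr2 12.6 ± 7.71 and 1.75 ± 0.662 (SD, n = 3 each; limma adjusted p 0.0703 and 0.0766). In bone marrow, where Cd163 was lower, 5 of 10 lay above 0; Cd209f, a C-type lectin, averaged 0.572 ± 0.538 in aged (n = 3) and 11.3 ± 2.48 in young mice (SD, n = 2; limma adjusted p 0.159). Of 9 organ-restricted macrophage genes tested, 1 rose and 6 lay above 0 over the mean of the tissues, with a median of 0.11. Cd5l, a secreted protein of Kupffer and red pulp macrophages, rose by 0.96 (SE 0.190, limma adjusted p 0.0431), in 12 of 25 settings; Adgre1 (F4/80) stood at 0.80 (adjusted p 0.0659) and Chil3 at 0.66 (0.124). In liver Cd5l, Vsig4 and Adgre1 averaged 428 ± 139, 115 ± 77.1 and 41.4 ± 38.5 in 2 aged mice and 147 ± 80.1, 29.5 ± 14.2 and 8.23 ± 3.20 in 3 young mice (SD), and none passed; young mouse 2 was the lowest of the livers for all 3, at 54.8, 16.5 and 5.94.
Of 12 genes of disease-associated microglia, 1 rose and 11 lay above 0 over the mean of the tissues, with a median of 0.30. Gpnmb, a transmembrane glycoprotein of lipid-laden macrophages, rose by 1.36 (SE 0.194, limma adjusted p 0.0057), in 24 of 25 settings, and Ctsd stood at 0.47 (adjusted p 0.0559). In thymus Gpnmb averaged 23.8 ± 2.39 in aged and 6.68 ± 3.85 in young mice, and Lpl, the lipoprotein lipase that fat cells also make, 102 ± 28.6 in aged and 37.7 ± 11.9 in young mice (SD, n = 3 each; limma adjusted p 0.0381 and 0.0175), calls that held in 4 and 9 of 14 settings. In choroid plexus Apoe averaged 4161 ± 298 in aged and 2987 ± 315 in young mice (SD, n = 3 each; 0.48, limma adjusted p 0.0129), a call that held in 8 of 14 settings. With quantile normalization the Apoe difference was 0.29 (limma adjusted p 0.286). Which cells of the choroid plexus carried it was not tested.

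In no tissue did the age change of any of the 10 genes pass a test against the other tissues. In a fit of all 63 libraries with the mouse as a term, the age difference of each tissue was set against the mean of the other 10, and 0 of the 10 genes passed in any of the 11 contrasts. The share of all genes that passed was 0.0% for bone marrow and inguinal lymph nodes, where limma gave 529 and 1506 genes at an unadjusted p under 0.05. It was 0.423% for cervical lymph nodes, 0.203% for choroid plexus, 0.0753% each for colon and lung, 0.348% for hippocampus, 0.122% for liver, 0.0174% for mesenteric lymph nodes, 0.0695% for spleen and 0.0521% for thymus.

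In choroid plexus of parabionts, Cx3cr1 was highest in young isochronic animals, with 57.9, 65.8 and 48.3 units in the 3 animals. Old heterochronic animals had 34.9 and 55.5, old isochronic animals 34.4, 37.6 and 35.0, and young heterochronic animals 33.0, 33.7 and 20.4. All young heterochronic and all old isochronic values lay below all young isochronic values. Young heterochronic minus young isochronic animals gave −0.98 (SE 0.187, limma unadjusted p 1.12e-05, adjusted p 0.127). Leaving out young heterochronic animal 11 brought the adjusted p to 0.0256, and leaving out animal 14, the lowest, to 0.575. Old isochronic minus young isochronic animals gave −0.66 (SE 0.187, limma adjusted p 0.267), or 0.0436 when only those groups entered the fit. In unpaired mice of the tissue experiment the age difference of Cx3cr1 in choroid plexus was 1.03, higher in aged mice; that experiment used another RNA kit, and the contrast between the experiments was not tested.

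Trem2 in the same animals had 12.4 and 16.3 units in old heterochronic, 12.5, 11.1 and 15.4 in old isochronic, 8.11, 5.03 and 5.98 in young heterochronic and 20.6, 11.7 and 18.2 in young isochronic animals. Young heterochronic values lay below those of the other groups. The difference from young isochronic animals was −1.26 (SE 0.305, limma unadjusted p 0.000252, adjusted p 0.365), and old heterochronic minus young heterochronic animals gave 1.06 (adjusted p 0.310). Lyz2 had 79.9 and 113 in old heterochronic, 85.1, 79.7 and 68.6 in old isochronic, 73.6, 72.5 and 41.4 in young heterochronic and 96.9, 82.2 and 72.6 in young isochronic animals. Young heterochronic animal 14 was the lowest of the 11 for Lyz2, and also for Tyrobp (12.97), Aif1 (3.99), Fcer1g (8.98) and Csf1r (27.9).
Cd163 had 4.50 and 7.39 in old heterochronic, 5.77, 3.45 and 2.73 in old isochronic, 5.80, 3.02 and 2.99 in young heterochronic and 12.4, 10.2 and 4.13 in young isochronic animals. It lay lower in young heterochronic than in young isochronic animals by a log2 difference of −0.94 (limma adjusted p 0.772). Cd68 ran from 2.56 to 10.7 over all 11 animals with every pair of groups overlapping. Fcer1g averaged 15.4 in old and 13.5 in young isochronic animals, which overlapped.

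**Figure D5:**
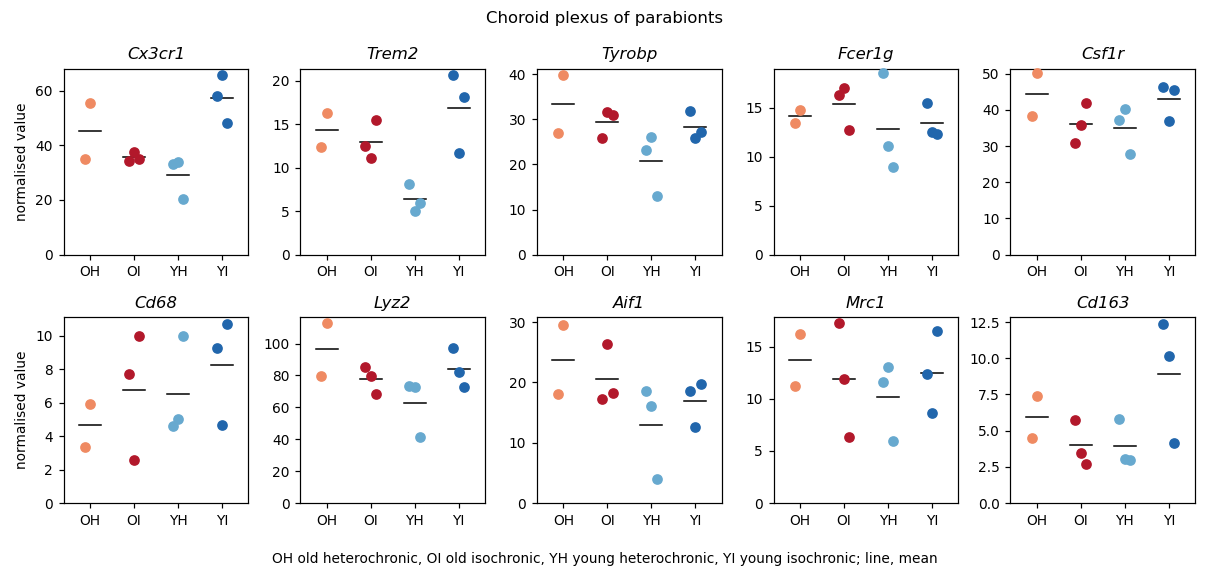
Normalised reads (linear scale) of the 10 genes in choroid plexus of 11 parabionts, in the order old heterochronic, old isochronic, young heterochronic and young isochronic; each point is 1 animal and black lines are group means. Cx3cr1 and Trem2 of the young heterochronic animals lie below all young isochronic animals.

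None of the 10 genes passed in any contrast of the parabionts, which share groups with one another. For young heterochronic minus young isochronic animals, where 0.0% of all genes passed, 10 of 10 genes lay below 0, with a median of −0.47, and 2 separated downward (5.68% of all genes). Without young heterochronic animal 14, 7 of 10 lay below 0 and the median was −0.19. For old isochronic minus young isochronic animals 7 lay below 0, with a median of −0.18, and 1 separated downward (4.97%), while 0.172% of all genes passed. For old heterochronic minus old isochronic animals, where 0.0% passed, 8 lay above 0 with a median of 0.23; without old heterochronic animal 34 only 4 did, with a median of −0.04. For old heterochronic minus young heterochronic animals 9 lay above 0 with a median of 0.56, and 4 separated upward (10.9%): Cx3cr1 (0.62), Trem2 (1.06), Tyrobp (0.69) and Lyz2 (0.64), while Aif1 overlapped (1.02). Single animals moved these values: without young heterochronic animal 14, the low one, Cx3cr1 stood at 0.39, Tyrobp and Aif1 at 0.40 each, Lyz2 at 0.38 and Trem2 at 1.04. On leaving out each animal in turn they ran from 0.29 to 0.94 for Cx3cr1, 0.40 to 0.97 for Tyrobp, 0.38 to 0.89 for Lyz2, 0.40 to 1.38 for Aif1 and 0.88 to 1.25 for Trem2. There 0.124% of all genes passed. The effect of the partner in old minus that in young animals was 1.27 for Cx3cr1 (SE 0.280, limma unadjusted p 7.95e-05, adjusted p 0.384) and 1.39 for Trem2 (adjusted p 0.674), with 0.0% of all genes passing. Only 2 old heterochronic animals entered, and leaving out either leaves 1, assumed to vary like the other groups: the value for Cx3cr1 was then 1.60 without animal 29 (adjusted p 0.0212) and 0.95 without animal 34 (adjusted p 0.951). In the 3 contrasts where no gene passed, limma gave 922, 1268 and 912 genes at an unadjusted p under 0.05, in the order given here. Homeostatic microglia genes had 0 of 9 above 0 in young heterochronic minus young isochronic animals, with a median of −0.46 and 0 passing. Border macrophage genes had 1 of 7 above 0 in the same contrast, with a median of −0.64; Pf4, platelet factor 4, averaged 6.44 ± 3.90 in young heterochronic and 15.6 ± 3.00 in young isochronic animals (SD, n = 3 each; limma adjusted p 0.540). Endothelial markers summed to 172 to 208 in young heterochronic and 215 to 232 in young isochronic animals, and neutrophil markers to 23.2 to 40.9 in young heterochronic and 24.3 to 39.6 in young isochronic animals. Markers of brain tissue and blood mostly lay below 0 in the same contrast, with 1 of 5 neuron (median −0.65), 1 of 4 oligodendrocyte (−0.70), 1 of 4 astrocyte (−0.41) and 0 of 5 erythroid markers (−0.62) above 0, and 0 passing. Summed neuron markers were 29.9 to 35.2 in young heterochronic and 28.2 to 80.4 in young isochronic animals, and erythroid markers 125 to 166 in young heterochronic and 177 to 321 in young isochronic animals. Oligodendrocyte markers summed to 63.8 to 92.6 in young heterochronic and 72.6 to 127 in young isochronic animals, and astrocyte markers to 141 to 177 in young heterochronic and 134 to 167 in young isochronic animals. Choroid plexus epithelium markers had 5 of 6 above 0 (median 0.07). Old isochronic minus young isochronic animals share the same reference group. That contrast had 0 of 7 border macrophage (median −0.32) and 3 of 9 homeostatic microglia genes (−0.30) above 0. Of its markers, 0 of 5 neuron (−0.81), 1 of 4 oligodendrocyte (−0.52) and 2 of 4 astrocyte markers (−0.20) lay above 0. For erythroid markers it was 0 of 5 (−0.62), and for choroid plexus epithelium 1 of 6 (−0.08). The part of these cells in the microglial values was not tested.

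Across the 22 medians of tissue and age, the genes most like the mean of the 10 were Mpeg1 (r = 0.967), the pore-forming perforin-2 of macrophages, Themis2 (0.955), Pld4 (0.951), Lilrb4a (0.945) and Lyn (0.943), out of 11735 compared. These points share mice and libraries, so r is a description. Tyrobp and Fcer1g had r = 0.964 with each other, Cd68 had 0.927 with Fcer1g, and Csf1r had 0.883 with Cd68. Trem2 was the gene least like the others, its highest r being 0.132 with Cx3cr1, followed by Cx3cr1, whose highest was 0.451 with Csf1r. Across the 11 parabionts the genes most like the mean were Nrp1 (0.972), Smarcd3 (0.949), Crabp1 (0.932), Slc7a11 (0.907) and Mgp (0.906), out of 13308. Tyrobp and Aif1 had r = 0.932 there, and Cd68, at a few reads per library, was the gene least like the others, with at most 0.284.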

How the data were processed

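RNA was sequenced from 74 libraries of 75 listed samples: 63 of tissues from 6 mice and 11 of choroid plexus of parabionts. RNA was purified with miRNeasy in the tissue experiment and with an RNA MicroPrep kit in the parabiosis experiment, per the labels' protocols, so levels were compared within an experiment. The deposited values are a signal: normalised, partly fractional reads per RefSeq transcript, and the submitters' processing notes name TopHat and the mm9 build. How reads were counted and scaled, and which TopHat version was run, is not given in the sources used here. Depth was estimated as the column sum divided by the most frequent step, taken as 1 read. The bone marrow of young mouse 1 was not analysed here, and 1 column of values that matched no sample was not used.

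Each gene kept its row with the highest mean (25865 and 21781 rows). limma 3.58.1 in R 4.3.3 (mean-variance trend, robust) was fitted to log2(value + 1), which understates changes of low genes, for genes with at least 2 units in as many libraries as the smaller group had. p-values were adjusted by Benjamini-Hochberg over all genes tested, with 0.05 as the threshold, and the scripts were tested on simulated data. Tissues were fitted one by one, the 4 parabiosis groups together, and all tissues with the mouse as a term for differences between tissues. The mean over tissues, its repeat without 8 libraries and the differences between pairs of tissues were added after values had been seen. Libraries of a group had r of 0.815 to 0.971 in tissues and 0.963 to 0.977 in parabionts, and none were identical. Aged and young mice of one number are different animals and did not deviate together (r −0.194 to 0.176 over 30 pairs), so numbers were not used as pairs. The 10 genes, the 10 gene lists and the 20 marker lists were chosen with earlier results of these data known; of each list described, up to 3 genes with the smallest p were named, with those that passed. Python 3.11.15 was used for the rest. A planned search of protein sequences was not run.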

Additional observations from a re-analysis of the deposited data

Results flagged for a closer look

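In 6 cases every library moved one way with age in one setting and the opposite way in another, and the difference was then tested with limma. For Cx3cr1 the change with age stood above that of colon by 2.12 log2 units in choroid plexus (SE 0.658, adjusted p 0.376), by 1.501 in hippocampus (adjusted p 0.750) and by 1.32 in spleen (adjusted p 0.927). In parabionts the change of Cx3cr1 with age among heterochronic animals was greater than among isochronic animals by 1.27 (adjusted p 0.384). For Lyz2 the choroid plexus minus inguinal lymph node contrast was 1.64 (adjusted p 0.806). For Cd163 the thymus minus bone marrow contrast was 4.24 (SE 1.04, adjusted p 0.390). None of the 6 passed over all genes tested.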

How the results depend on the processing

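The settings tried were other pseudocounts, filters, scalings, variance models and treatments of rows, a replicate block, and each library, mouse or tissue left out. Where no library, mouse or tissue was left out, 513 of 537 values kept their direction and their side of the threshold, and 496 of 542 where any was. Most of these values did not pass at first, and they count as kept if they stayed so with the same sign. Among the 10 genes, calls over the mean of the tissues held in 23 of 25 cases for Fcer1g, 13 for Cd68 and 12 for Trem2. The call of Cd163 in thymus held in 9 of 14. Genes passing in bone marrow numbered 1 (Cd163) in place of 0 with a pseudocount of 4, with quantile normalization and with the replicate block, and 0 to 1 on leaving out libraries. In choroid plexus 1 gene (Lyz2) passed without the filter and with the replicate block, and 0 to 1 on leaving out. In thymus 0 passed without the filter or without the trend, and 0 to 1 on leaving out. In liver 5 passed with the replicate block, in which the third young library has no partner and 1 residual degree of freedom is left. Numbers do not pair these mice, so a call under the block is not read as stronger; without the mouse term in the fit of all tissues (no replicate block) 0 of the 10 genes passed in each contrast. In old isochronic minus young isochronic parabionts 1 passed when only those groups were fitted. On leaving out animals, young heterochronic minus young isochronic animals gave 0 to 1 and the contrast of partner effects 0 to 1. Over the mean of the tissues, 1 in place of 3 genes passed with the smallest pseudocount, with median-of-ratios scaling and with summed rows, 0 without the trend, and 1 without cervical lymph nodes, liver, spleen or thymus; on leaving out mice and tissues the count was 0 to 3. The cause was not tested. Leaving out libraries turned the sign of Trem2 in bone marrow (−0.20 to 1.17), choroid plexus (−0.016 to 1.23), liver (−0.24 to 3.29) and thymus (−0.20 to 0.30), and of Cd68 in colon (−0.043 to 0.20), hippocampus (−0.75 to 0.26) and inguinal lymph nodes (−0.27 to 0.69). It did so for Fcer1g in hippocampus (−0.12 to 0.65) and inguinal lymph nodes (−0.72 to 0.15), Lyz2 in hippocampus (−2.05 to 1.06), Tyrobp in hippocampus (−0.57 to 0.95), and Cd163 (−0.084 to 0.55; −0.080 without the 8 libraries with markers of other organs) and Cx3cr1 (−0.13 to 0.36) over the mean of the tissues. Tyrobp in hippocampus, at 0.01, also stood at −0.036 with a pseudocount of 4, −0.17 with quantile normalization and −0.12 with median-of-ratios scaling. Genes passing among all genes ran from 0 to 19 over the settings in bone marrow (6), 1 to 8 in cervical lymph nodes (4), 6 to 57 in choroid plexus (34), 0 to 23 in colon (15), 0 to 219 in liver (2), 1 to 3 in lung (3), 1 to 7 in mesenteric lymph nodes (4), 9 to 20 in spleen (18), 0 to 226 in thymus (132) and 2 to 123 over the mean of the tissues (56), the value in brackets being the one reported. They ran from 3 to 45 in old isochronic minus young isochronic (25) and 1 to 21 in old heterochronic minus young heterochronic animals (18). In the contrasts of a tissue with the others they ran from 0 to 63 for bone marrow (0), 5 to 240 for cervical lymph nodes (73), 35 to 318 for choroid plexus (35), 11 to 24 for colon (13), 58 to 117 for hippocampus (60), 0 to 6 for inguinal lymph nodes (0), 21 to 41 for liver (21), 11 to 38 for lung (13), 1 to 11 for mesenteric lymph nodes (3), 8 to 26 for spleen (12) and 7 to 18 for thymus (9). Depth limits values of a few units, which rest on a few reads: Trem2 could not be tested in colon, Mrc1 in choroid plexus and hippocampus, and Cd163 in hippocampus.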
